A study of Homo sapiens with 6 samples.

Results

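LIN28A, LIN28B, IGF2BP1, IGF2BP2, IGF2BP3, HMGA1 and HMGA2 encode oncofetal proteins, which are made in the embryo, are for the most part low in adult tissues and return in many tumours. The 7 genes were chosen by name, each had a single probe set among the 21448 of the array, and none was left out. Levels were read on 6 single-colour arrays of K562, an established human erythroleukaemia line with the BCR-ABL1 fusion. Per the sample titles and labels, 3 arrays held K562 cells with a vector to overexpress the microRNA miR-543. The other 3 held K562 cells with a control vector, and the level of miR-543 was not analysed here. The labels did not give the promoter of the vector, the way it entered the cells, or the time of harvest. They also did not say if replicates came from separate cultures, and every p-value therefore rests on an array-to-array spread that may be technical only.

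Background links the 7 genes. LIN28 proteins bind precursors of the let-7 microRNAs and block their maturation, and let-7 in turn represses LIN28B, IGF2BP and HMGA2 mRNAs. IGF2BP proteins bind mRNAs, many of them marked by the methylated base m6A, and keep them from decay, while HMGA proteins bend AT-rich DNA and open chromatin. In fetal liver blood formation LIN28B, IGF2BP proteins and HMGA2 are high, and they are known for sustaining fetal haemoglobin.

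The sequences of miR-543 and of 3 let-7 microRNAs are shown first, so that the seeds, which pair with target mRNAs, can be compared. All are mature forms from RefSeq on GRCh38.p14, written 5′ to 3′, with the seed, bases 2 to 8, in capitals.
hsa-miR-543: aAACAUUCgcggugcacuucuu
hsa-let-7a-5p: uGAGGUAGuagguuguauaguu
hsa-let-7b-5p: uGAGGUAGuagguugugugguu
hsa-let-7g-5p: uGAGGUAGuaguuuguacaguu
The miR-543 form lies on the plus strand at chr14:101032033-101032054. The listed copies are at chr9:94175962-94175983 on the plus strand for let-7a (MIRLET7A1), chr22:46113691-46113712 on the plus strand for let-7b and chr3:52268336-52268357 on the minus strand for let-7g. The let-7 seed was shared by 11 of the 2370 mature microRNA names in the table, let-7a to let-7g, let-7i, miR-98, miR-4458 and miR-4500. The seed of miR-543 was found in 1 name, its own, and differs from that of let-7.

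LIN28 proteins grip let-7 precursors at a GGAG motif near the loop, and the hairpins of let-7a-1 and miR-543 are shown to compare that feature. GGAG is in capitals, and both come from RefSeq on GRCh38.p14.
MIRLET7A1: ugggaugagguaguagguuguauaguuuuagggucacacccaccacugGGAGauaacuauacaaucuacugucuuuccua
MIR543: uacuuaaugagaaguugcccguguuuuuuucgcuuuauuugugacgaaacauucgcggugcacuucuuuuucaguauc
They lie at chr9:94175957-94176036 and chr14:101031987-101032064, both on the plus strand. GGAG, searched on the transcribed strand, occurred in 9 of 12 hairpins of the let-7 and miR-98 genes (75%) and in 677 of all 1560 hairpins (43.4%), and it did not occur in that of miR-543. A match is a description of letters only. Levels of let-7 and miR-543 were not analysed here, since 0 probe sets carried the name MIR543 and 0 that of a let-7 or miR-98 gene.

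The cells showed the erythroid identity of K562 with either vector. All 12 measured erythroid markers of 17 listed lay above the array medians of 5.99 to 6.01, and their mean log2 signal was 12.7 to 12.8 on the miR-543 arrays and 12.4 to 12.6 on the control arrays. Of 9 pluripotency markers, set beside LIN28A because that gene is high in embryonic stem cells, the methyltransferase DNMT3B alone lay above the array medians. The list had a mean of 4.59 to 4.72 on miR-543 arrays and 4.66 to 4.85 on control arrays. Above the medians lay 4 of 10 lymphoid, 3 of 10 epithelial and 1 of 9 stromal markers, with mean signals of 5.62 to 5.73, 6.12 to 6.22 and 4.69 to 4.83 on miR-543 arrays against 5.52 to 5.63, 6.13 to 6.23 and 4.4 to 4.65 on control arrays. Of the 12 erythroid markers, 11 had a positive change (median 0.31), beside 52.3% of all probe sets. The miR-543 arrays lay all above the control arrays for 6 markers, beside 7.89% of all probe sets. An unadjusted limma p under 0.05 was found for 4, beside 10.6%, and 0 were called, beside 0.569%. The 3 with the smallest p were KLF1 (change 0.66), TAL1 (0.41) and ALAS2 (0.40). Their part in the values below was not tested.

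None of the 7 oncofetal genes was called in the test across all probe sets. Changes are given on the log2 scale as miR-543 vector minus control vector, fitted with limma, and a gene was called at a Benjamini-Hochberg adjusted p under 0.05 over all 21448 probe sets. That rule called 122 probe sets (0.569%), so 0 of 7 is near the background. In bulk RNA, fewer cells that express a gene and less of its RNA per cell cannot be told apart. At an unadjusted p under 0.05 there was 1 of the 7 genes, LIN28B, beside 10.6% of all probe sets. Of the 7 changes 6 were below 0 and 1 was above, beside 47.1% below and 52.3% above among all probe sets, and their median was -0.16 beside 0.01 over all probe sets. The fit could have called a log2 change of about 0.74 to 1.08 in these genes, given the standard error of each.

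**Figure D1:**
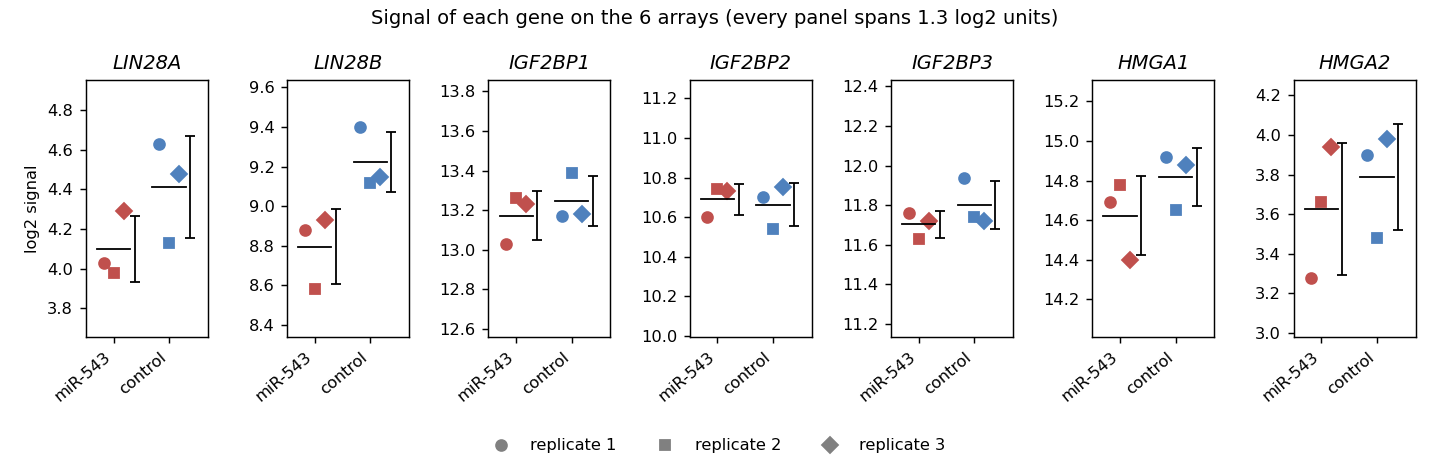
Log2 signal (vertical axis) of each of the 7 genes on the 3 miR-543 arrays (red, left) and the 3 control arrays (blue, right), with replicates by shape, a line at the mean and a bar of 1 SD; panels have the same span and different positions. LIN28B is the gene whose miR-543 arrays (8.58 to 8.93) all lie below its control arrays (9.12 to 9.40).

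The LIN28 pair came first in size of change. LIN28B, whose protein acts in part in the nucleus on primary let-7 transcripts, had log2 signals of 8.88, 8.58 and 8.93 on the miR-543 arrays, against 9.40, 9.12 and 9.15 on the control arrays. The highest miR-543 array lay below the lowest control array, as in 7.5% of all probe sets. None of the 7 genes had its miR-543 arrays all above its control arrays, as 7.89% of all probe sets had. The means were 8.80 ± 0.19 with the miR-543 vector and 9.22 ± 0.15 with the control vector (SD, n = 3 each). By limma LIN28B differed by -0.43 with an SE of 0.16 (95% interval -0.77 to -0.08), and its level was thus 74.4% of that with the control vector (58.6% to 94.5%). It was not called (unadjusted limma p = 0.0202, adjusted p = 0.373), and the exact permutation test gave p = 0.1, which is the lowest value possible with 3 arrays against 3. Of all probe sets 7.44% had a larger change in size.

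LIN28A, the paralogue of stem cells, which acts mainly in the cytoplasm and recruits the uridylating enzyme TUT4 to let-7 precursors, had 4.03, 3.98 and 4.29 on the miR-543 arrays, against 4.63, 4.13 and 4.48 on the control arrays. The groups overlapped through miR-543 replicate 3 and control replicate 2. These signals lay near the lower quartiles of the arrays, 3.98 to 4.03, and without detection calls it cannot be told whether LIN28A mRNA was present. The change was -0.31 (SE 0.17, 95% interval -0.69 to 0.06) and was not called by limma (adjusted p = 0.561). The change of LIN28B minus that of LIN28A was -0.11 (95% interval -0.45 to 0.23, exact permutation p = 0.5), the first of 5 paralogue pairs compared, all with an adjusted p of 0.9.

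The IGF2BP genes had signals above the upper quartiles of the arrays and the narrowest intervals of the set. IGF2BP1, which binds MYC, ACTB and IGF2 mRNAs, had 13.03, 13.26 and 13.23 on the miR-543 arrays, against 13.17, 13.39 and 13.18 on the control arrays. The groups overlapped, with the lowest array of all in the miR-543 group and the highest in the control group. Its change was -0.07 (SE 0.14), and the 95% interval of -0.39 to 0.24 runs from 76.3% to 118% of the control level. Signals of IGF2BP2, a paralogue that stays on in some adult tissues, were 10.60, 10.74 and 10.73 with the miR-543 vector, against 10.70, 10.54 and 10.75 with the control vector. All 6 arrays lay within 0.21 log2 units, and the change of 0.03 (95% interval -0.28 to 0.33) was the only positive one among the 7 genes. IGF2BP3, the paralogue most tied to leukaemia with MLL fusions, had 11.76, 11.63 and 11.72 on the miR-543 arrays, against 11.94, 11.74 and 11.72 on the control arrays. Here control replicate 1 stood above the other 5 arrays, which lay between 11.63 and 11.76. The IGF2BP3 change was -0.10 (95% interval -0.40 to 0.21). The limma adjusted p-values of IGF2BP1, IGF2BP2 and IGF2BP3 were 0.906, 0.971 and 0.864.

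A p that misses the threshold does not show that levels were equal, so the intervals matter more here. For each IGF2BP gene the interval excludes a change of 0.5 in either direction. Residual SDs of IGF2BP2 and IGF2BP3 were 0.095 and 0.098, smaller than those of all but 9.04% and 9.77% of probe sets. The differences between their changes were -0.10 for IGF2BP1 minus IGF2BP2 (95% interval -0.48 to 0.28), 0.02 for IGF2BP1 minus IGF2BP3 (-0.42 to 0.47) and 0.12 for IGF2BP2 minus IGF2BP3 (-0.20 to 0.44). The 3 exact permutation p-values were 0.9, 0.8 and 0.3.

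The signal of HMGA1 lay above the upper quartiles of the arrays (9.61 to 9.66) and that of HMGA2 below the lower ones, though signals of different probe sets depend on their probes and give no ratio between genes. HMGA1, an architectural protein widely made in dividing and leukaemic cells, had 14.69, 14.78 and 14.40 on the miR-543 arrays, against 14.92, 14.65 and 14.88 on the control arrays. The groups overlapped because control replicate 2 fell below both of the higher miR-543 arrays. HMGA1 had a change of -0.19 (SE 0.16, 95% interval -0.54 to 0.15) and thus 87.5% of its level with the control vector. Without miR-543 replicate 3, its lowest array, the HMGA1 change was -0.08. HMGA2, a classic let-7 target, had 3.28, 3.66 and 3.94 with the miR-543 vector, against 3.90, 3.48 and 3.98 with the control vector. Each group spanned 0.5 or more, and every array was below the lower quartiles of 3.98 to 4.03 or at them, so presence of HMGA2 mRNA cannot be told. Its change was -0.16 (95% interval -0.60 to 0.28), the widest interval of the set. The limma adjusted p was 0.724 for HMGA1 and 0.843 for HMGA2, and the change of HMGA2 minus that of HMGA1 was 0.03 (95% interval -0.78 to 0.84, exact permutation p = 0.9).

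**Figure D2:**
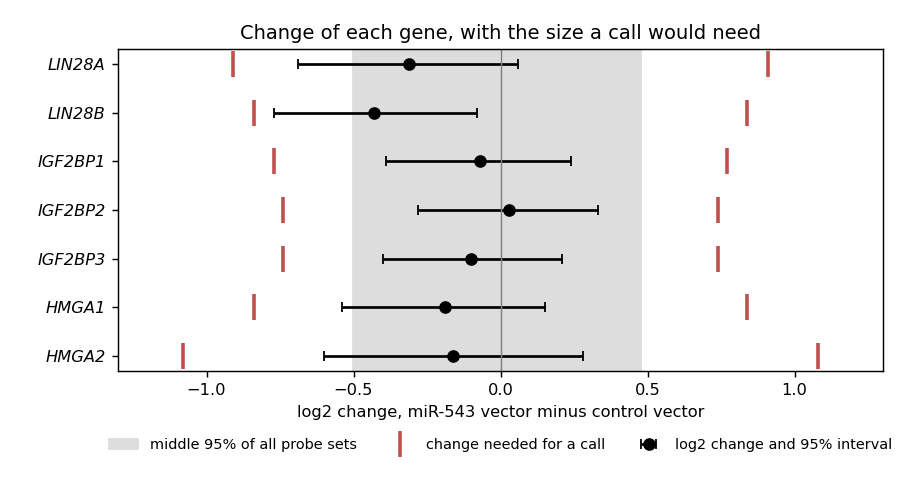
Log2 change, miR-543 vector minus control vector (horizontal axis), of each gene with its 95% interval, the change in either direction that a call would need (red ticks) and the range holding 95% of all probe sets (grey, -0.50 to 0.48). All 7 changes lie inside the grey range and short of the ticks, and the interval of LIN28B alone leaves out 0.

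The arrays within a group did not move alike over the 7 genes. Control replicate 2 was the lowest control array for 5 genes, LIN28A, LIN28B, IGF2BP2, HMGA1 and HMGA2, and the highest for IGF2BP1. Control replicate 1 was the highest control array for 4 genes, LIN28A, LIN28B, IGF2BP3 and HMGA1. Among the miR-543 arrays replicate 2 was lowest for LIN28A, LIN28B and IGF2BP3 and highest for IGF2BP1, IGF2BP2 and HMGA1. The order of the 3 arrays was the same for LIN28A and LIN28B in both groups. HMGA1 had that order too among the control arrays, and IGF2BP1 and IGF2BP2 shared an order among the miR-543 arrays.

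Likeness over the 6 arrays was described for each gene against 7859 other named probe sets with a mean above the median and a range of at least 0.3. SELENOP, a selenium carrier, was nearest to LIN28B (Pearson's r = 0.996), followed by ZWILCH, a kinetochore protein (r = 0.992), and BLTP3B (r = 0.990). Their changes were -0.62, -0.43 and -0.55. CDC25C, a mitotic phosphatase, was nearest to IGF2BP1 (r = 0.997), EPS8L2 to IGF2BP3 (0.998), FBXO46 to IGF2BP2 (0.993), UBALD2 to HMGA1 (0.994), SH3KBP1 to LIN28A (0.993) and VCF2 to HMGA2 (0.965). These nearest genes were picked from 7859 over only 6 points, which share their arrays. An r of 0.9 or more with LIN28B was reached by 140 of the 7859 (1.78%), and by 22 to 114 with the other 6 genes.

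The proteins that make or destroy let-7 were set beside the LIN28 genes. Of 24 genes listed, 20 were measured, 0 were called in either direction, 10 lay above 0 and 9 below, and the median change was 0.00. Since 0.569% of all probe sets were called, 0 calls is near the background in this list and in each list below. TRIM71, a ubiquitin ligase that is itself repressed by let-7, had 6.13, 6.19 and 6.14 on miR-543 arrays, against 5.69, 6.20 and 5.39 on control arrays, a change of 0.39 (limma adjusted p = 0.525). The RNA editor ADAR had a change of -0.37 with miR-543 arrays all below control arrays, and DIS3L2, the exonuclease that degrades uridylated let-7 precursors, had one of 0.27 (limma adjusted p = 0.472 and 0.638).

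Known mRNA targets of let-7 did not move together. Of 45 listed, 41 were measured, 0 were called, 22 lay above 0 and 19 below, and the median was 0.01, the same as over all probe sets. Unadjusted p-values under 0.05 were found for 4 of the 41, beside 10.6% of all probe sets. NR6A1, an orphan nuclear receptor of germ cells and embryos, had 11.47, 11.53 and 11.47 on the miR-543 arrays, against 11.08, 11.10 and 11.21 on the control arrays. Every miR-543 array of NR6A1 was above every control array, and the change was 0.36 (SE 0.13, limma adjusted p = 0.373). LOXL4, a lysyl oxidase, and the death receptor FAS had changes of 0.36 and 0.35, also without overlap (limma adjusted p = 0.414 and 0.415). Arrays of the 2 groups lay apart with miR-543 higher for 3 of the 41, beside 7.89% of all probe sets. With miR-543 lower they lay apart for 2 of the 41, beside 7.5%. The kinase CDK6, also on this list, went the other way, with a change of -0.40 and overlapping arrays. MYC, named here after its value was seen because let-7, IGF2BP proteins and HMGA1 all bear on it, averaged 12.48 with the miR-543 vector and 12.40 with the control vector, a change of 0.08.

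mRNAs known as cargo of IGF2BP proteins were described next. Of 23 listed 17 were measured, 0 were called, 10 lay below 0 and 6 above, and the median was -0.13. ALDH1A1, a retinaldehyde dehydrogenase, had 9.15, 8.61 and 9.09 on the miR-543 arrays, against 9.68, 9.88 and 9.90 on the control arrays, with no overlap. Its change was -0.87 (SE 0.17, limma adjusted p = 0.0668). CD44, a hyaluronan receptor, went the other way, with 9.70, 9.98 and 9.67 on the miR-543 arrays, against 9.24, 8.91 and 9.01 on the control arrays. The change of CD44 was 0.73 (SE 0.15, limma adjusted p = 0.0917), so ALDH1A1 and CD44, named for their small p, differed in sign. An unadjusted limma p under 0.05 was found for 4 of the 17, beside 10.6% of all probe sets. The miR-543 arrays lay all below the control arrays for 2 of the 17 and all above for 3, beside 7.5% and 7.89%. CDK6, a kinase of the G1 phase and a cargo of IGF2BP3, averaged 9.03 and 9.43 with the miR-543 and control vectors, a change of -0.40 (limma adjusted p = 0.456).

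Partners and relatives of the RNA-binding proteins held no called gene, which is near the background of 0.569% of all probe sets. Of 14 measured partners of IGF2BP complexes (17 listed), 9 lay below 0 and 5 above, with a median of -0.06. The miR-543 arrays lay all below the control arrays for 4 of the 14 and all above for 1, beside 7.5% and 7.89% of all probe sets. FMR1, the fragile X RNA-binding protein, is both a partner and a KH domain relative, and had a change of -0.38 (SE 0.14, limma adjusted p = 0.391). It had 9.99, 9.82 and 9.68 on the miR-543 arrays, against 10.22, 10.13 and 10.27 on the control arrays, without overlap. CAPRIN1, a granule protein, had a change of -0.21 and HNRNPD, which binds AU-rich RNA, one of 0.20. KH domain genes outside the IGF2BP family had a median of -0.03 over 28 of 32 listed, 16 below 0 and 12 above, with 0 called, -0.45 for the ubiquitin ligase MEX3C and -0.33 for ASCC1. Of 15 cold shock and CCHC zinc knuckle genes, the domains that LIN28 proteins combine, 13 were measured, 0 were called, and their changes ran from -0.21 for CARHSP1 to 0.14 for ZCCHC3 around a median of -0.04. YBX3, a cold shock protein, had a change of -0.15.

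Genes of the m6A system, the mark that IGF2BP proteins read, had a median of 0.01 over 17 of 19 listed, with 9 above 0, 8 below and 0 called. METTL3, the catalytic writer, had 10.60, 10.88 and 10.88 on the miR-543 arrays, against 10.70, 10.45 and 10.35 on the control arrays, a change of 0.29 (limma adjusted p = 0.563). The groups overlapped through miR-543 replicate 1 and control replicate 1. The writer subunit VIRMA and the reader YTHDF1 had changes of 0.21 and 0.18.

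**Figure D3:**
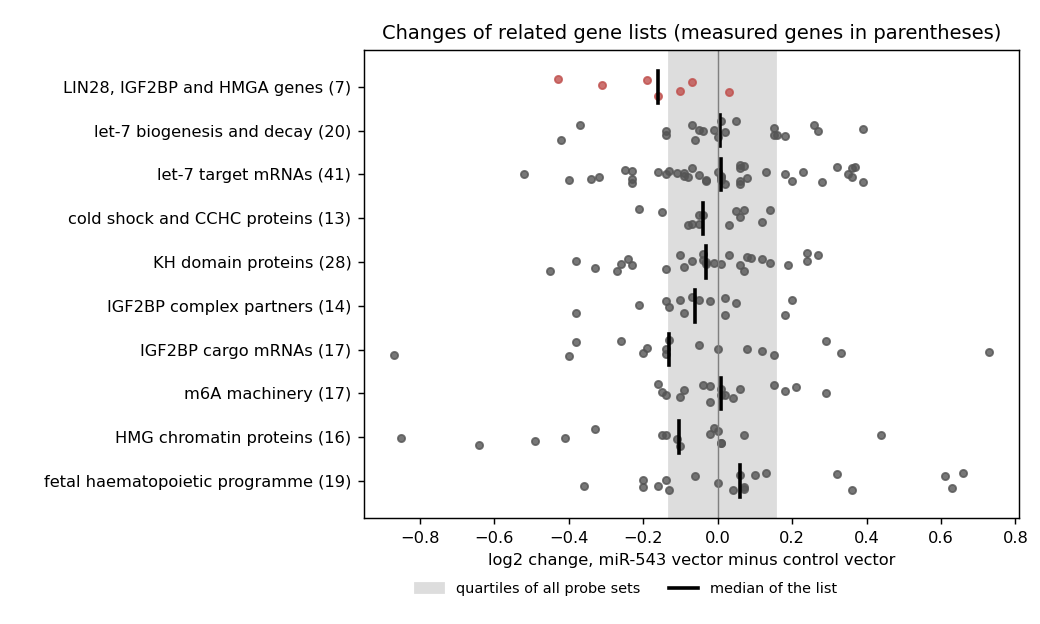
Log2 change, miR-543 vector minus control vector (horizontal axis), of every measured gene of the 7 genes (red) and 9 related lists (grey), with the median of each list as a black bar and the quartiles of all probe sets (-0.13 to 0.16) as a grey band. The medians of the 9 related lists run from -0.13 to 0.06, and ALDH1A1 (-0.87), HMGN5 (-0.85) and CD44 (0.73) lie farthest out.

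Other high mobility group and HMG box genes were set beside the HMGA genes. All 16 were measured, 12 lay below 0 and 4 above, 0 were called, and the median was -0.11. HMGN5, a nucleosome-binding protein, had 7.11, 7.25 and 6.91 on the miR-543 arrays, against 8.03, 8.12 and 7.66 on the control arrays. The groups were well apart, and the change of -0.85 (SE 0.17) was 1.8-fold with a limma adjusted p of 0.0654. HMGN3, of the same family, had a change of -0.64 (limma adjusted p = 0.29), and HMGXB3 had one of 0.44 (limma adjusted p = 0.322). Unadjusted p-values were under 0.05 for 5 of the 16, beside 10.6% of all probe sets, and that p was 0.242 for HMGA1 and 0.442 for HMGA2.

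**Figure D4:**
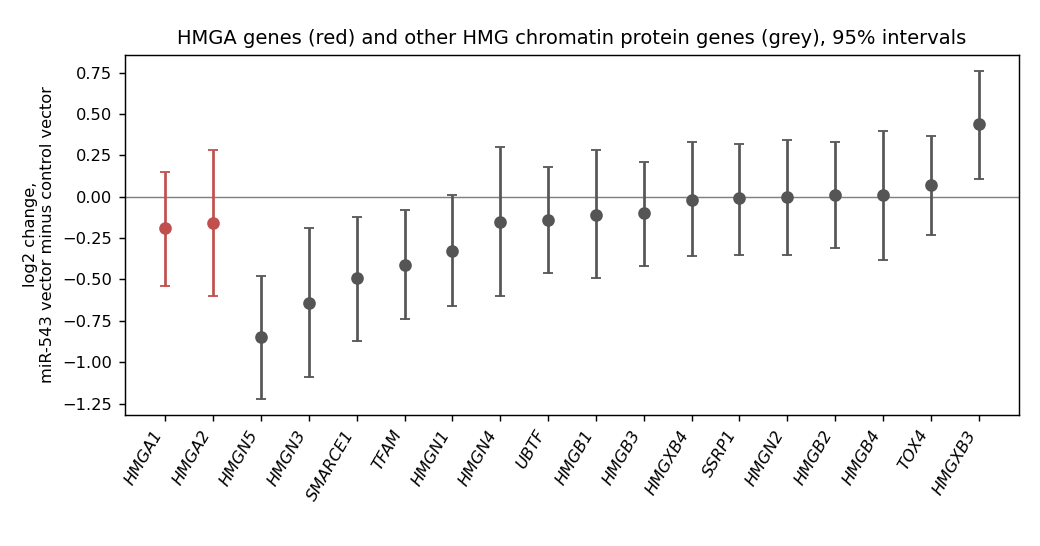
Log2 change, miR-543 vector minus control vector (vertical axis), of HMGA1 and HMGA2 (red) and of 16 other HMG chromatin protein genes (grey, ordered by change) with 95% intervals. The intervals of HMGA1 and HMGA2 hold 0, while those of HMGN5 (-0.85) and HMGN3 (-0.64) are among 4 that lie below it and that of HMGXB3 (0.44) lies above it.

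A mixed list held fetal genes of blood, genes commonly called oncofetal, and factors that act against fetal globin, such as KLF1 and BCL11A. Its median change was 0.06 over 19 of 24 listed, with 12 above 0, 7 below and 0 called. Since these roles are opposed, the median and counts do not describe a fetal programme as a whole. KLF1, a red cell factor that activates adult globin and BCL11A, had 7.67, 7.43 and 7.31 on the miR-543 arrays, against 6.80, 6.87 and 6.75 on the control arrays. Its arrays did not overlap, and the change was 0.66 (limma adjusted p = 0.106). DLK1, an imprinted membrane protein of fetal tissues, and CLEC11A, a growth factor for blood progenitors, had changes of 0.63 and 0.61 (limma adjusted p = 0.159 and 0.186). BCL11A, the repressor of fetal globin that LIN28B and IGF2BP1 are known to lower, was named after its value was seen. BCL11A mRNA averaged 4.25 and 4.32 with the miR-543 and control vectors, near the lower quartiles, and had a change of -0.06. The arrays read mRNA, and BCL11A protein was not measured. IGF2, the namesake cargo of the IGF2BP proteins, was named in the same way and averaged 3.81 and 3.94, below the lower quartiles of 3.98 to 4.03.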

How the data were processed

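The authors deposited log2 signals per probe set, made per the submitters' processing notes with Transcriptome Analysis Console 4.0 and RMA (background correction, normalization between arrays, 1 summary value a probe set). The RMA variant and annotation release are not given in the sources used here. Of 21448 probe sets 17709 had 1 gene symbol and 3739 were unnamed here, and genes of a list that matched no named probe set were not analysed here. Upper quartiles were 9.61 to 9.66. The number of arrays limits the precision.

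The tool for the comparison was limma 3.58.1 under R 4.3.3 (lmFit and eBayes over all probe sets, no block or filter), two-sided, with Benjamini-Hochberg adjustment. Exact permutation tests were two-sided, and paralogue pairs were adjusted over 5. Intervals of pair differences came from the per-array differences. Alternatives were trend and robust priors, rescaling, a signal filter, array weights, a replicate block and leaving out each replicate. On simulated data of 21448 probe sets the fit recovered 10%, 70%, 98% and 100% of log2 changes of 0.5, 1, 1.5 and 2. Errors were independent and normal, with variances drawn from the prior of the fit, and 50 probe sets were changed for each size. The shares therefore hold under the model of the fit itself and not for a given gene. The genes and lists were chosen with earlier results of these data known, from general knowledge. Named were all 7 genes, any called list gene and otherwise the 3 of each list with the smallest p. Of these the text leaves out those of the lymphoid, epithelial, stromal and pluripotency markers. Also named, for each of the 7, were the 3 most alike by Pearson's r, of which the text gives all 3 for LIN28B and the first for the others. The labels stated no pairing by replicate number. Deviations of arrays with the same number correlated at 0.0948, -0.0527 and 0.0181, and those with other numbers at -0.094 to 0.0655. With 3 arrays a group these values cannot show whether arrays of the same number shared a culture or batch. Sequences came from the RefSeq tables.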

Additional observations from a re-analysis of the deposited data

How the results depend on the processing

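Over 82 fits of the 7 genes under 12 alternatives (11 for LIN28A and HMGA2, which the filter for signals above the median removed), 0 gave a call. The LIN28B change stayed between -0.49 and -0.32 (limma adjusted p = 0.195 to 0.744). Without control replicate 1 or miR-543 replicate 2 it was -0.34 or -0.32. The unadjusted limma p of LIN28B was then 0.0829 or 0.0859, no longer under 0.05. The sign turned in 2 fits. Leaving out replicates gave -0.04 to 0.07 for IGF2BP2, negative without control replicate 2, and -0.32 to 0.01 for HMGA2, positive without miR-543 replicate 1. It gave -0.46 to -0.21 for LIN28A, -0.12 to 0.00 for IGF2BP1, -0.14 to -0.03 for IGF2BP3 and -0.28 to -0.08 for HMGA1. Changes moved by over 1.5 times toward 0 for IGF2BP1 without control replicate 2 (0.00) or miR-543 replicate 1 (0.00). Further quantile normalization moved IGF2BP1 to -0.03. So did leaving out control replicate 1 (-0.03) or miR-543 replicate 2 (-0.06) for IGF2BP3, and miR-543 replicate 3 (-0.08) for HMGA1. HMGA2 moved as far without control replicate 3 (-0.06) or control replicate 1 (-0.10). IGF2BP2, with 0.03 in the main fit, had 0.00 without miR-543 replicate 2. It had 0.01 without miR-543 replicate 3 and 0.01 with array weights. The count of called probe sets, 28 higher and 94 lower, was 80 and 172 (252 in all) with trend and robust priors, 51 higher with the signal filter, and 12 and 59 (71 in all) with the replicate block. Leaving out each replicate gave 2 to 12 higher, 32 to 47 lower and 34 to 59 in all, with 1 array fewer in the fit. The other causes were not tested. The replicate block changed no call among the 7 genes. The medians of the 9 lists moved by at most 0.03 under both rescalings. LIN28A and HMGA2 signals near the lower quartiles limit what can be read from them.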
